A study of Ovis aries with 95 samples.

Results

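IL1A, IL1B, TNF, IL6 and IL10, a group of 4 inflammatory cytokine genes with the gene of an anti-inflammatory cytokine, were followed in the brain of the fetal and newborn sheep. They were found by the gene names, accessions and descriptions of the probes in the array files, which gave 7 of the 15008 gene probes of the array. IL1A and IL10 have 2 probes each and the other genes 1. Each array carries 15 spots of these probes, since the probe of IL1B and the brighter probe of IL10 are spotted 5 times each.

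RNA was from 4 brain regions, the cortex, the brainstem, the hippocampus and the hypothalamus. The donors were untreated fetuses of 80, 100, 120, 130 and 145 d (days of gestation) and lambs in their first day after delivery, called newborn here. By the submitters' design text the 100 d group held fetuses of 96 to 100 d and the 145 d group fetuses of 142 to 144 d. Of the 24 groups of region and age, 23 had 4 arrays and hippocampus at 100 d had 3, which makes 95 arrays of 1 sample each. Each age group held 1 pair of twins, and by the methods 4 animals an age gave tissue of all 4 regions. The labels do not say which arrays share an animal, and all arrays were treated as independent.

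Cytokines are small secreted proteins by which immune cells, and in the brain mainly microglia and astrocytes, signal to their neighbours. IL1A, IL1B, TNF and IL6 start and carry the inflammatory response, and through their receptors they switch on NF-kappa B, MAP kinase and STAT signaling. IL10 restrains that response, and in the developing brain these cytokines are also known for roles in neurogenesis, glial maturation and synapse formation that do not need an infection.

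The probes are 60 bases long and the levels below are those of these sequences only. The probes of IL1A are shown whole because they gave different results. They start at bases 568 and 704 of the target sequence as counted in the array files, which leaves 76 bases between them.
IL1A, base 568: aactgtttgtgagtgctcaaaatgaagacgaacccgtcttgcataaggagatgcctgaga
IL1A, base 704: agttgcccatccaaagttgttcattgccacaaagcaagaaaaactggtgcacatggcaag
The probes of IL10 start at bases 1155 and 1195 and overlap. The last 30 bases of the former and the first 30 of the latter are shown, with the 20 bases they share in capitals, because most of each probe lies outside the overlap.
IL10, base 1155: gtttgaactaGAAGCAACTCAATTCCTCTG
IL10, base 1195: GAAGCAACTCAATTCCTCTGggaatgttac
For the single probes of the other genes, 30 bases are shown to identify them, which for IL1B and IL6 are the first 30. Those of TNF are the bases around AATAAA, in capitals, the polyadenylation signal that lies close to the end of most mRNAs.
IL1B, base 776: cgttttagaggtggccaggatataactgac
IL6, base 959: ggagccaaatcatttcttgaaatgtgtagg
TNF, base 1618: tcagtggcgagaAATAAAgtgtcctgagaa
AATAAA occurred in 1 of these 7 probes and in 5.63% of all gene probes of the same length, and its reverse complement TTTATT in 0 of 7 and in 3.7%.

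These genes were dim, and signal over background sets what can be said of them. Over the 95 arrays, 59.5 to 88.5% of gene spots were marked well above background by the scanner software, with a median of 79.8%. The lowest share was on a hippocampus array of 120 d. On the log2 scale of normalized intensity used here, the dimmest probe so marked lay at 6.48 on the median array. Each slide held arrays of a single region, and each region had 3 or 4 slides, so that regions were also compared with the slide as a random block. As a check of the tissue labels, GHRH, the growth hormone releasing hormone of the hypothalamus, was well above background on all 24 hypothalamus arrays, against 2 of 24 in cortex, 7 of 24 in brainstem and 3 of 23 in hippocampus. OXT and POMC, of the same list, were well above background on all arrays of every region, with their highest array in hypothalamus, at 14.42 and 12.06. Of the 10 genes of that list 5 had a named probe, and not all are given singly here. The lowest group mean over these 5 genes in hypothalamus was 9.86, at 120 d. The highest elsewhere was 9.40, in hippocampus at 100 d, though single arrays overlapped. The marker lists of cortex and brainstem had 0 genes with a named probe, and NEUROD1, the only one for hippocampus, was well above background on all arrays of every region. It fell from 80 to 145 d in each region, most in brainstem, from 12.72 to 7.92 (-4.80, adjusted p = 1.53e-07), where its 80 d mean was near the 13.03 of hippocampus. Its part in the changes of the cytokine genes in brainstem was not tested.

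IL1B was well above background on all 95 arrays, TNF on 89 and IL6 on 84. Of the probes of IL10, that at base 1195 was well above background on 93 arrays and that at base 1155 on 81. IL1A was the dimmest, with 72 arrays for the probe at base 704 and 35 for that at base 568. None of the 7 probes was saturated on any array. A group with no array well above background has only a bound, and for IL1A this was the case at 145 d in brainstem and in hypothalamus, with either probe. The probe of IL1A at base 568 alone was also below this mark on every array of hippocampus at 120 and 145 d and of hypothalamus at 80 and 100 d, and the probe of IL10 at base 1155 on every array of cortex at 80 d.

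**Figure D1:**
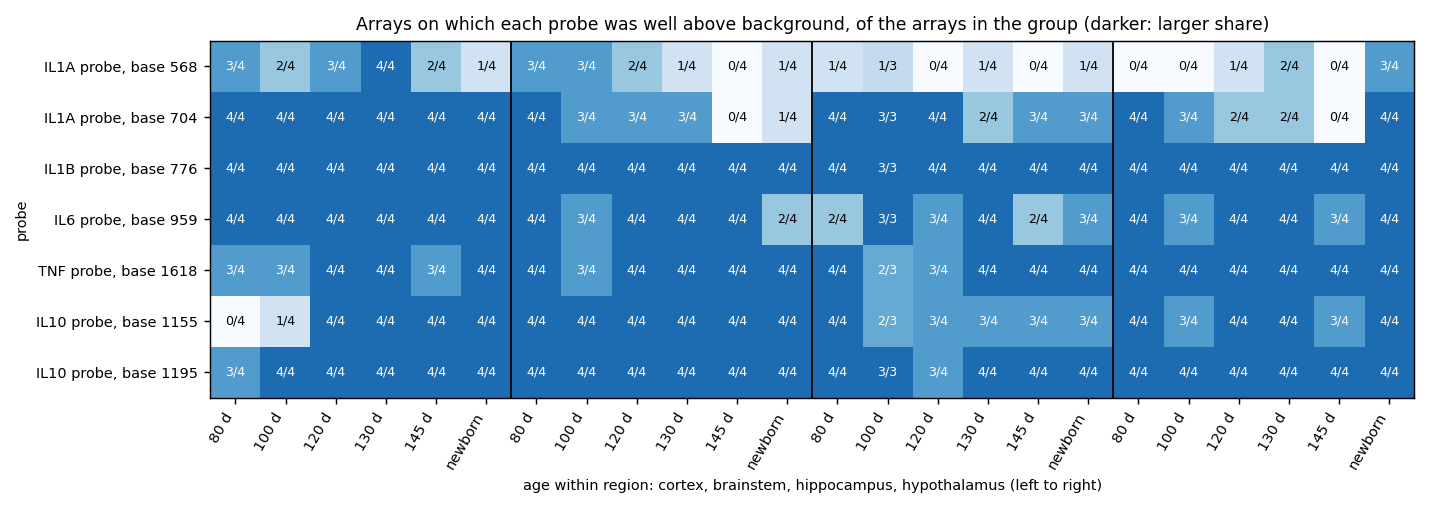
Number of arrays on which each probe (vertical axis) was well above background, of the arrays in each group of region and age (horizontal axis, 4 blocks of 6 ages), with darker cells for larger shares. IL1B is at 4 of 4 or 3 of 3 throughout, while IL1A at base 704 falls to 0 of 4 at 145 d in brainstem and hypothalamus.

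Over the 24 groups the mean level moved from 7.41 to 8.51 for IL1B, from 6.77 to 8.07 for IL10, from 6.73 to 7.87 for IL6, from 6.72 to 7.37 for TNF and from 6.55 to 7.12 for IL1A (log2). In cortex IL1B and IL10 rose with age, IL1A fell, IL6 had its highest mean at 120 d and was lower in the newborn than at 80 d, and TNF was higher in the newborn. The fall of IL1A was called with the probe at base 704 only, and without newborn replicate 2 the difference of TNF did not pass. In brainstem IL1B and IL10 rose. In hypothalamus the fetal slopes of IL1B and IL10 passed, that of IL1B close to the threshold (adjusted p = 0.049 from limma). IL10 was also higher there in the newborn than at 80 d, and its calls passed for the probe at base 1195 only. In hippocampus 0 of the 5 genes passed a test. The hippocampus arrays were scanned on 2 days, those of 80 d all on the first day and those of each later age on both. Whether fewer cells with a transcript or less transcript per cell stands behind a lower level cannot be told apart in such tissue RNA.

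**Figure D2:**
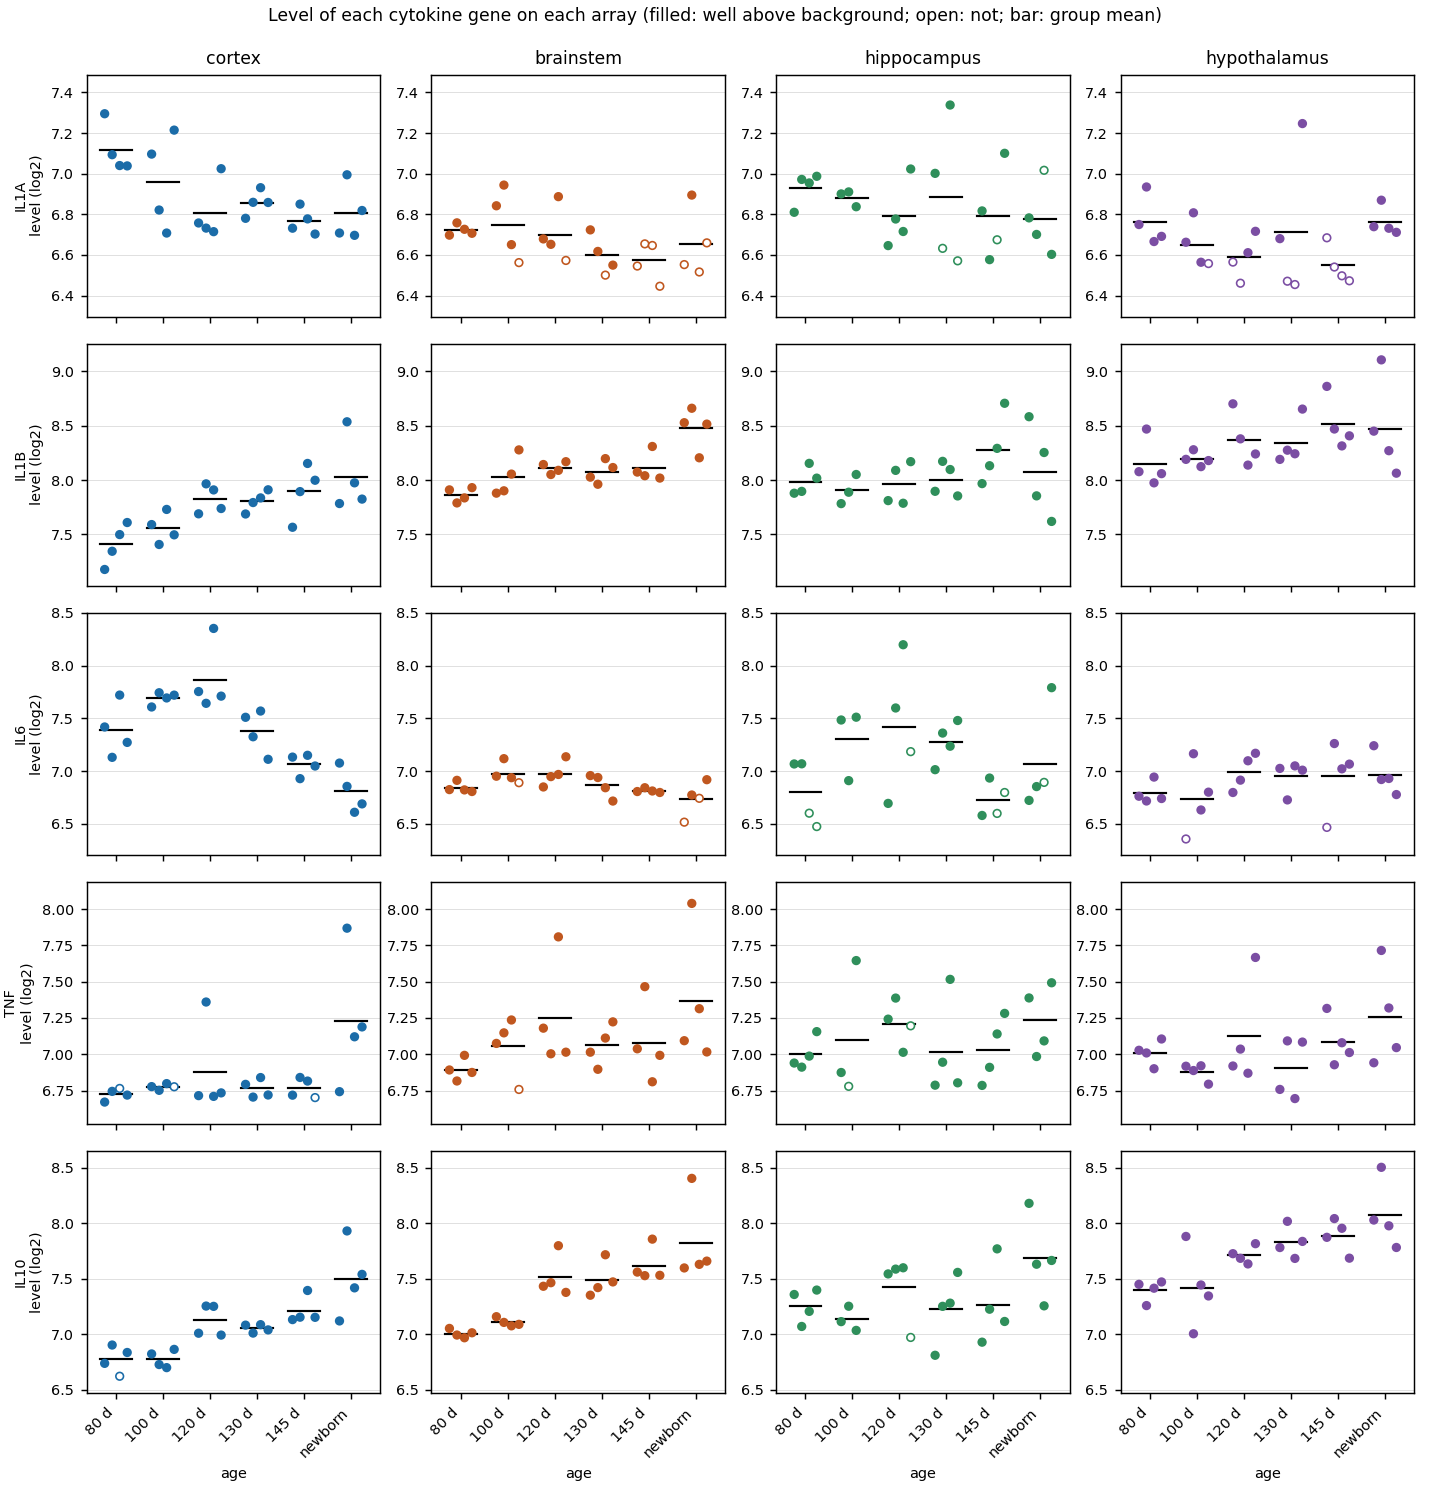
Level of each gene (rows) on each array (points, log2 normalized intensity) by age and region (columns), filled where at least 1 probe was well above background, with bars at the group means. IL1B and IL10 climb with age in cortex and brainstem, and IL6 in cortex has its highest mean, 7.87, at 120 d, with 1 array at 8.35 and the other 3 within the range of 7.64 to 7.75.

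Any change with age was tested by limma's F statistic, with 80 d as the base and Benjamini-Hochberg adjustment over all genes of the region. In cortex it called 4 of the 5 genes, and 46.5% of all genes. It called 2 in brainstem (41.2% of all genes), 1 in hypothalamus (15.7%) and 0 in hippocampus (3.09%). The slope over the fetal ages was called for 3 genes in cortex (47.3% of all genes), 2 in brainstem (47.6%), 2 in hypothalamus (19.3%) and 0 in hippocampus (7.58%). The change from 80 to 145 d was called for 3 genes in cortex (42% of all genes), 1 in brainstem (38.1%), 1 in hypothalamus (13.8%) and 0 in hippocampus (4.47%). The change from 80 d to the newborn was called for 5 genes in cortex (45.5% of all genes), 2 in brainstem (43.6%), 1 in hypothalamus (17.7%) and 0 in hippocampus (5.62%). Across birth, from 145 d to the newborn, limma called 1 gene in brainstem (4.99% of all genes) and 0 in cortex (0.252%), hippocampus (0.00772%) and hypothalamus (2.44%). In hippocampus 0 of the 5 genes had an unadjusted p under 0.05 in any of these tests, and across birth 2 did in cortex and 0 in hypothalamus. With so many genes called in cortex and brainstem in the tests other than that across birth, such a call sets none of these genes apart.

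The cytokines of the interleukin 1 pair, which share a receptor, moved in opposite directions in cortex. IL1A, which is made as an active precursor and acts on neighbours when cells are damaged, was at 7.29, 7.09, 7.04 and 7.04 on the cortex arrays of 80 d and at 6.73, 6.85, 6.78 and 6.70 on those of 145 d. All 4 arrays of 145 d were lower than all 4 of 80 d. The difference was -0.35 (95% interval -0.56 to -0.14, adjusted p = 0.00725 from limma), or 0.784 of the level at 80 d. The newborn cortex, at 6.71, 6.99, 6.70 and 6.82, also lay below every 80 d array, by -0.31 (adjusted p = 0.0147). The fetal slope in cortex was -0.05 per 10 d (standard error 0.01, adjusted p = 0.003). The F test of IL1A in cortex passed at an adjusted p of 0.0443 and missed the threshold in 18 of 24 fits with 1 array left out, with adjusted p from 0.0152 to 0.16. Without cortex 80 d replicate 1 the newborn difference was -0.25 (adjusted p = 0.0605).

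In the other regions the changes of IL1A did not pass. Its group means lay between 6.57 and 6.75 in brainstem, 6.78 and 6.93 in hippocampus and 6.55 and 6.76 in hypothalamus. From 80 to 145 d the differences were -0.15 (-0.35 to 0.05), -0.14 (-0.48 to 0.20) and -0.21 (-0.48 to 0.06) in this order. Where all arrays of 145 d were not well above background, the probe at base 704 gave a bound for the fold between group means. Such a bound does not allow for the spread between arrays. In brainstem the mean of 80 d was at least 1.19-fold that of 145 d, but the difference did not pass (adjusted p = 0.0889 from limma over single probes). In hypothalamus the means of 80 d and of the newborn were at least 1.36-fold and 1.29-fold that of 145 d. These differences did not pass either (adjusted p = 0.0858 and 0.228). The fetal slope of IL1A in brainstem was -0.03 per 10 d (adjusted p = 0.0739). It passed in 4 other settings, among them the slide as a block (adjusted p = 0.0299) and the authors' table (adjusted p = 0.028), and without brainstem 120 d replicate 3 (adjusted p = 0.0464).

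The changes of IL1A in cortex came from the probe at base 704. There its mean fell from 7.46 ± 0.11 at 80 d to 6.87 ± 0.10 at 145 d (SD, n = 4), a difference of -0.59 (adjusted p = 0.00128 from limma over single probes). The probe at base 568 went from 6.77 ± 0.18 to 6.66 ± 0.05, a difference of -0.11 (adjusted p = 0.353). The latter was well above background on 3 and 2 of these 4 arrays.

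**Figure D3:**
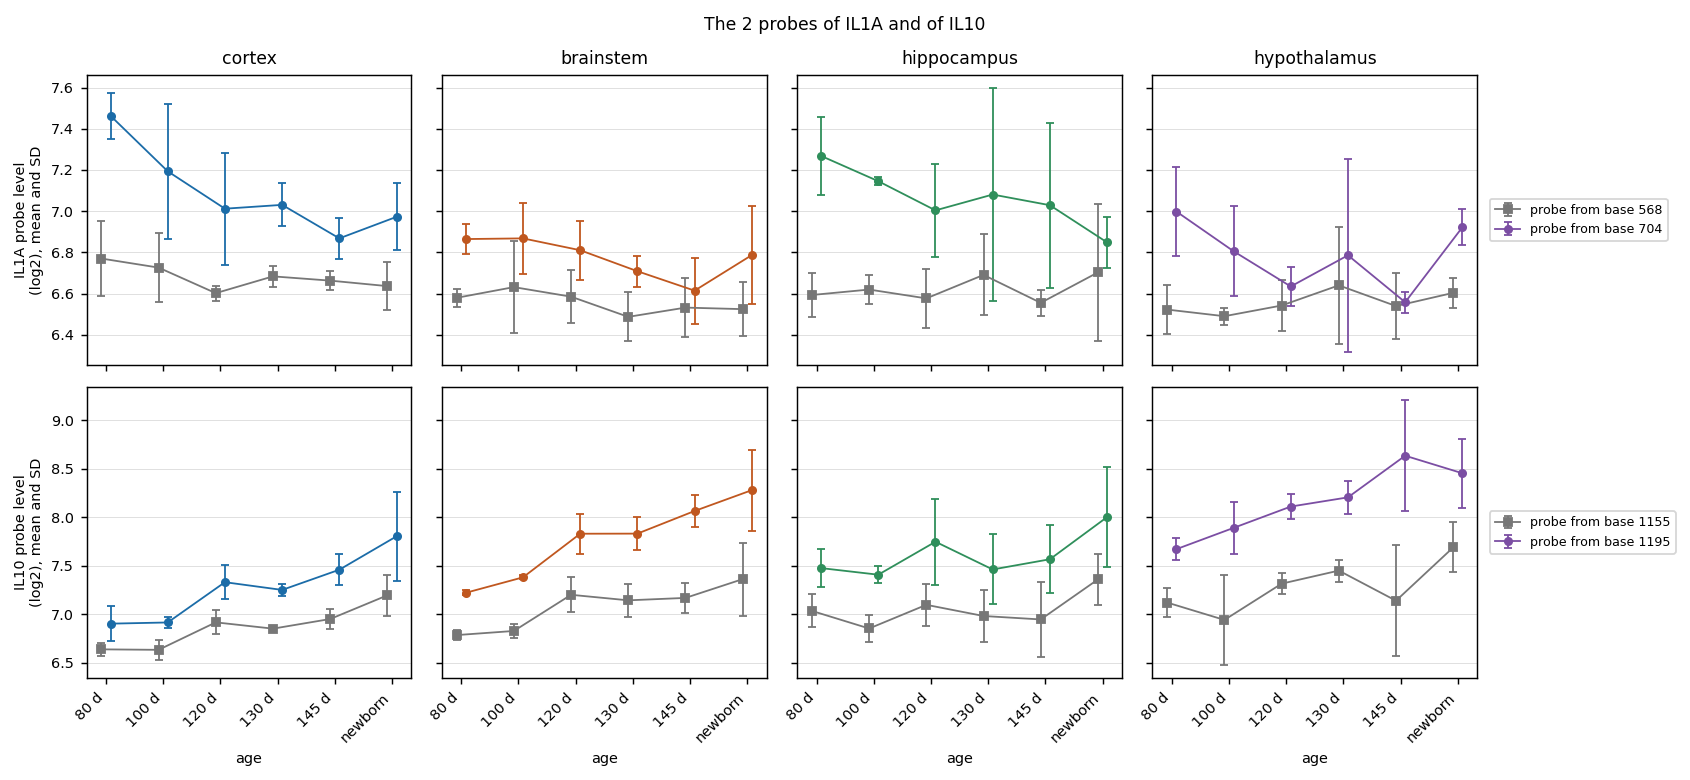
Mean level (log2, bars are SD over the arrays of a group) of the probes of IL1A (top) and IL10 (bottom) by age in the 4 regions, with the first probe, at base 568 or 1155, in grey. IL1A at base 704 falls in cortex from 7.46 to 6.87 between 80 and 145 d, and in hypothalamus the probes of IL10 part at 145 d, at 8.64 and 7.14.

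IL1B, the inducible interleukin 1 that is released by inflammasome-activated microglia and macrophages, rose in cortex. Its 80 d arrays there were at 7.18, 7.34, 7.50 and 7.61, its 145 d arrays between 7.57 and 8.15 and its newborn arrays at 7.78, 8.54, 7.97 and 7.82. The newborn arrays lay above all those of 80 d, while 145 d overlapped 80 d by 1 array. The difference from 80 d was 0.50 at 145 d (95% interval 0.20 to 0.79, adjusted p = 0.00745) and 0.62 in the newborn (0.33 to 0.92, adjusted p = 0.0011), or 1.54-fold. The step from 145 d to the newborn was 0.13 (-0.17 to 0.42). The fetal slope was 0.08 per 10 d (adjusted p = 0.000239), and it was above 0 within each of the 3 cortex slides.

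In brainstem IL1B went from 7.91, 7.79, 7.84 and 7.93 at 80 d to 8.53, 8.66, 8.21 and 8.52 in the newborn, with no overlap. The difference was 0.61 (0.40 to 0.82, adjusted p = 6.06e-05). The 145 d arrays were at 8.07, 8.04, 8.31 and 8.02 and overlapped the newborn ones. The rise from 145 d to the newborn was 0.37 (0.16 to 0.58, adjusted p = 0.0393), the single call across birth among these genes and regions. It missed the threshold without brainstem 145 d replicates 1, 2 or 4 or newborn replicates 2 or 4, at 0.31 to 0.35 and adjusted p of 0.0595 to 0.117, and in 7 of 14 other settings. The difference at 145 d from 80 d was 0.24 (0.03 to 0.45, adjusted p = 0.0621). It passed without brainstem 100 d replicate 4 or newborn replicates 3 or 4, at adjusted p of 0.0443, 0.0372 and 0.0469.

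In hypothalamus IL1B was at 8.08, 8.47, 7.97 and 8.06 at 80 d and at 8.45, 9.11, 8.27 and 8.06 in the newborn. These groups overlapped, with a difference of 0.33 (-0.06 to 0.71, adjusted p = 0.247), and without newborn replicate 2 it was 0.12 (adjusted p = 0.707). Its fetal slope passed at 0.06 per 10 d with an adjusted p of 0.049, and no longer in 14 of 24 fits with 1 array left out (highest adjusted p 0.112). In hippocampus the newborn arrays spread from 7.62 to 8.58 around an 80 d mean of 7.99, and the difference was 0.09 (-0.31 to 0.49).

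TNF acts through its receptors on nearly all cells and in the brain also takes part in synaptic scaling. Its fetal slope did not pass in any region. The F test of TNF in cortex had an adjusted p of 0.0802. It passed with the slide as a block (0.0394), with the scanner's processed signal (0.0322) and without cortex 120 d replicate 2 (0.0261) or newborn replicate 1 (0.00724). Without newborn replicate 2 its adjusted p was 0.341. In brainstem the F test passed with the processed signal only (adjusted p = 0.0459). In cortex its 5 fetal group means lay between 6.72 and 6.88, and the slope was 0.01 per 10 d (95% interval -0.02 to 0.04). Cortex newborn arrays were at 6.74, 7.87, 7.12 and 7.19, against 6.67, 6.74, 6.76 and 6.72 at 80 d. A single newborn array lay within the 80 d range and the other 3 above it. The difference was 0.51 (0.17 to 0.84, adjusted p = 0.0126), or 1.42-fold, and without cortex newborn replicate 2 it was 0.29 (adjusted p = 0.0636). From 145 d it was 0.46 (0.13 to 0.79, unadjusted p = 0.00856, adjusted p = 0.342), and it was 0.62 without cortex newborn replicate 1 (adjusted p = 0.0369) and 0.25 without replicate 2, which did not pass.

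In brainstem all newborn arrays of TNF, at 7.09, 8.04, 7.31 and 7.02, were above those of 80 d, at 6.89, 6.82, 6.99 and 6.87. The difference of 0.47 (0.06 to 0.88) had an adjusted p of 0.0583. It passed with the scanner's processed signal, at an adjusted p of 0.00354, and without brainstem 120 d replicate 3 or newborn replicates 1 or 4, at adjusted p of 0.0357, 0.0381 and 0.0213. Without newborn replicate 2 it was 0.25 (adjusted p = 0.254). In hippocampus and hypothalamus the newborn differences from 80 d were 0.24 (-0.17 to 0.65) and 0.24 (-0.10 to 0.59) and the groups overlapped. Without newborn replicate 2 that in hypothalamus was 0.09 (adjusted p = 0.776).

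The 6 highest levels of TNF were 8.04, 7.87 and 7.72 on newborn replicate 2 of brainstem, cortex and hypothalamus, 7.81 on brainstem 120 d replicate 3, 7.67 on hypothalamus 120 d replicate 4 and 7.65 on hippocampus 100 d replicate 3. CD3E, a chain of the T cell receptor complex, was at 9.09, 8.73, 9.46, 8.79, 8.84 and 7.93 on these arrays in the same order, over a range of 6.69 to 9.46 on all arrays. HBB, beta globin, was at 15.24 and 15.61 on the 120 d arrays named, the highest of brainstem and hypothalamus, and at 11.58, 11.58 and 12.07 on the newborn ones. Their part in the levels of TNF was not tested.

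IL6, which acts through gp130 and STAT3 on neurons, glia and vessels, changed with age in cortex. It was at 7.42, 7.13, 7.72 and 7.27 at 80 d, at 7.61, 7.74, 7.69 and 7.72 at 100 d and at 7.75, 7.64, 8.35 and 7.71 at 120 d. It then went down, to 7.51, 7.33, 7.57 and 7.11 at 130 d, 7.13, 6.93, 7.15 and 7.05 at 145 d and 7.08, 6.86, 6.61 and 6.69 in the newborn. All newborn arrays lay below all 80 d arrays. The F test had an adjusted p of 2.37e-05, and the newborn was lower than 80 d by -0.58 (-0.88 to -0.28, adjusted p = 0.00234), or 0.67 of that level. At 145 d the difference was -0.32 (-0.62 to -0.02, adjusted p = 0.0816). The straight slope over fetal life, -0.05 per 10 d, did not pass (adjusted p = 0.237).

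Both blood markers with a named probe, HBB and AHSP, also had their highest cortex mean at 120 d. HBB went through means of 11.47, 12.44, 13.96, 13.21, 11.95 and 12.15 over the 6 ages and AHSP, the chaperone of alpha globin, through 7.46, 7.41, 8.02, 7.35, 6.95 and 7.27. The part of blood in the level of IL6 was not tested. Without replicate 3 the 120 d arrays ran from 7.64 to 7.75, which overlaps the 100 d arrays. On that replicate, the highest of all for IL6, HBB was at 14.33, and on replicate 2, with IL6 at 7.64, it was at 15.09.

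In the other 3 regions the highest mean of IL6 was also at 120 d. In hippocampus it was 7.42 ± 0.64, and its arrays ran from 6.69 to 8.20 and the F test had an adjusted p of 0.709. On the array at 6.69, replicate 1, the only spot of IL6 lay in a dim area of the array. Hippocampus newborn replicate 4 stood at 7.79 against 6.72 to 6.89 on the other newborn arrays, and HBB was at 15.04 on it and at 11.08 to 12.01 on the others. In brainstem the means of IL6 lay between 6.74 and 6.98 (adjusted p = 0.137) and in hypothalamus they had a lowest value of 6.74 (adjusted p = 0.756). Here the difference of the newborn from 80 d was -0.10 (-0.28 to 0.07) and 0.18 (-0.17 to 0.52).

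IL10, the cytokine that turns macrophages and microglia from an inflammatory to a restrained state, rose in 3 regions. In cortex its arrays went from 6.74, 6.90, 6.62 and 6.83 at 80 d through 7.13, 7.15, 7.39 and 7.15 at 145 d to 7.12, 7.93, 7.42 and 7.54 in the newborn. Every array of 145 d and of the newborn lay above all those of 80 d. The differences were 0.43 (0.19 to 0.68, adjusted p = 0.00493) and 0.73 (0.48 to 0.97, adjusted p = 2.9e-05), the latter 1.66-fold.

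In brainstem IL10 stood at 7.05, 6.99, 6.97 and 7.01 at 80 d and at 7.16, 7.11, 7.07 and 7.09 at 100 d. By 120 d it was at 7.43, 7.46, 7.80 and 7.38, above every earlier array. It reached 7.56, 7.53, 7.86 and 7.53 at 145 d and 7.60, 8.40, 7.63 and 7.66 in the newborn, and these 2 groups overlapped. From 80 d the difference was 0.61 at 145 d (0.32 to 0.91, adjusted p = 0.00167) and 0.82 in the newborn (0.52 to 1.11, adjusted p = 9.71e-05), or 1.76-fold. On newborn replicate 4 a dim area of the array covers a spot of IL10 and a spot of IL1B, and without it the level of IL10 was 7.78 in place of 7.66.

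In hypothalamus IL10 was at 7.45, 7.26, 7.41 and 7.47 at 80 d, 7.87, 8.04, 7.95 and 7.68 at 145 d and 8.03, 8.50, 7.98 and 7.78 in the newborn. Neither later group overlapped 80 d. The difference was 0.49 at 145 d (0.17 to 0.81, adjusted p = 0.0373) and 0.68 in the newborn (0.35 to 1.00, adjusted p = 0.00375). With the scanner's processed signal the 145 d difference was 0.60 and did not pass (adjusted p = 0.471). It also missed the threshold in 7 of 24 fits with 1 array left out, without each of the 80 d arrays or 145 d replicates 1, 2 or 3, at 0.44 to 0.52 and adjusted p of 0.0581 to 0.0979.

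The fetal slope of IL10 was 0.07 per 10 d in cortex, 0.10 in brainstem and 0.09 in hypothalamus (adjusted p = 6.07e-05, 5.21e-06 and 0.00224), and within each of the slides that held several fetal ages in these regions it was above 0. The hypothalamus slope rests on the probe at base 1195 (0.14, adjusted p = 0.00117), since that at base 1155 gave 0.04 (adjusted p = 0.538), and with the scanner's processed signal it did not pass (adjusted p = 0.123). In hippocampus the slope was 0.01 (95% interval -0.05 to 0.06). Hippocampus newborn arrays, at 8.18, 7.63, 7.25 and 7.66, overlapped those of 80 d, at 7.36, 7.07, 7.20 and 7.40, with a difference of 0.43 (-0.02 to 0.87, adjusted p = 0.31). Across birth IL10 differed by 0.29 in cortex (0.05 to 0.54, adjusted p = 0.466) and by 0.20 in brainstem (adjusted p = 0.413). The difference was 0.42 in hippocampus (adjusted p = 1) and 0.18 in hypothalamus (adjusted p = 0.545). Without newborn replicate 2 it was 0.15 in cortex, 0.01 in brainstem and 0.04 in hypothalamus (adjusted p = 0.961, 0.963 and 0.933).

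The probes of IL10 rose together in cortex and brainstem. From 80 d to the newborn they changed by 0.90 (base 1195) and 0.56 (base 1155) in cortex and by 1.06 and 0.58 in brainstem, with adjusted p of 1.06e-05 to 0.00221. Since no cortex array of 80 d was well above background for the probe at base 1155, its 80 d level there has only a bound. Its newborn group mean was at least 1.46-fold that of 80 d, without allowance for the spread between arrays. In hypothalamus they parted. From 80 to 145 d the probe at base 1195 changed by 0.96 (adjusted p = 0.00414) and that at base 1155 by 0.02 (adjusted p = 0.975). On 145 d replicate 1 the former stood at 9.44 and the latter at 6.30, not well above background, while on the other 3 arrays both were well above it. In the newborn hypothalamus the differences from 80 d were 0.78 (adjusted p = 0.0139) and 0.57 (adjusted p = 0.0909).

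Of the astrocyte markers, GFAP rose in every region and AQP4 in cortex and brainstem. From 80 to 145 d GFAP, their intermediate filament, rose by 2.69 in cortex, 1.80 in brainstem and 2.32 in hypothalamus, where IL10 rose, and by 2.16 in hippocampus, where IL10 did not pass (adjusted p = 2.54e-10, 2.91e-05, 4.8e-06 and 3.98e-05). AQP4, the water channel of astrocyte endfeet and the other of 2 named genes in a list of 5, rose by 1.77 in cortex and 0.97 in brainstem (adjusted p = 0.000614 and 0.0196). In hypothalamus and hippocampus its differences of 0.28 and 0.96 did not pass (adjusted p = 0.895 and 0.454). From 80 d to the newborn GFAP rose in all 4 regions, by 2.80 to 3.96, while AQP4 in hypothalamus fell by 3.28 (adjusted p = 0.019). Over this same span, from 80 d to the newborn, AQP4 rose by 1.09 in cortex (adjusted p = 0.0229). It did not pass in brainstem (0.07, adjusted p = 0.88) or hippocampus (-0.41, adjusted p = 0.771). Their part in the levels of IL10 and IL1B was not tested.

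**Figure D4:**
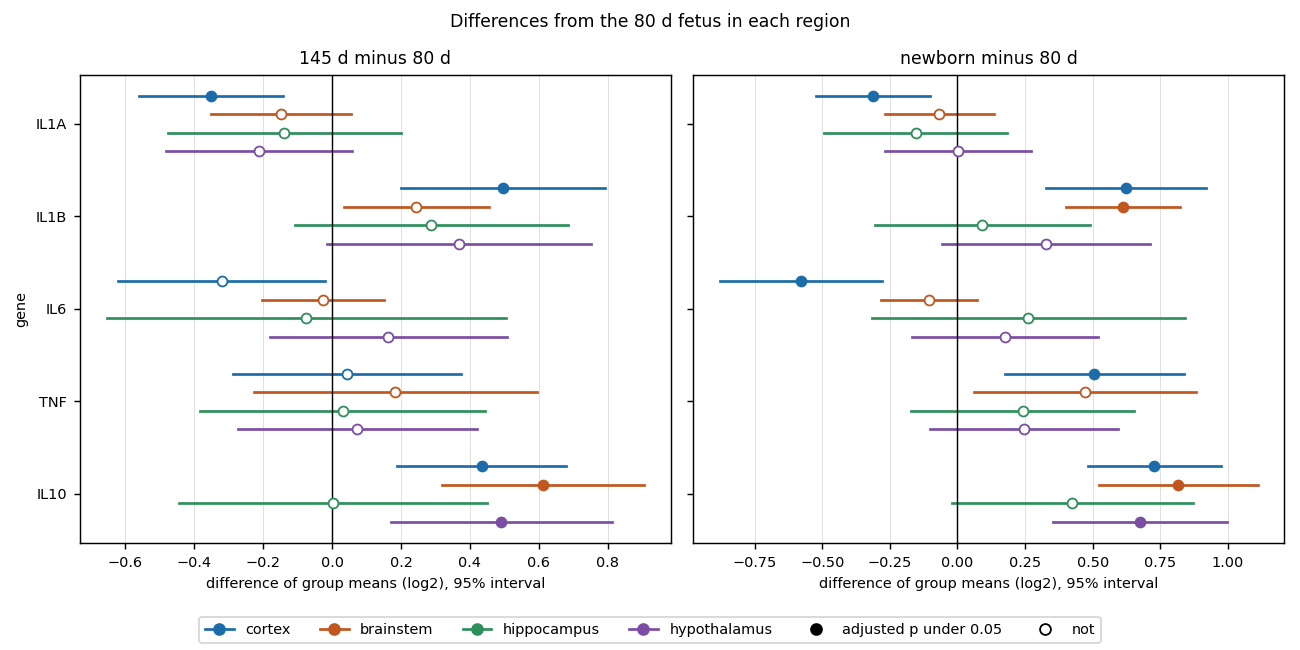
Difference in level (log2, with 95% intervals from limma) of each gene from 80 d at 145 d (left) and in the newborn (right) in the 4 regions, filled where the adjusted p was under 0.05. IL10 is filled in cortex, brainstem and hypothalamus in both panels, and all 5 genes are filled in cortex in the newborn panel.

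The sizes of these changes depend on the processing. The setting below changed background removal and normalization together, and their parts were not told apart. With the scanner's processed signal, to which no offset was added, IL10 in the newborn differed from 80 d by 2.53 in cortex, 1.80 in brainstem and 1.35 in hypothalamus, and IL1B by 1.46 in cortex and 0.69 in brainstem. In cortex IL1A then differed by -1.16, IL6 by -1.55 and TNF by 1.74, and all of these passed.

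Whether a change differed between regions was tested itself. Over all 95 arrays, limma's F test of the change from 80 to 145 d by region called 0 of the 5 genes (10.4% of all genes), with 1 at an unadjusted p under 0.05. This was IL10 (unadjusted p = 0.0455, adjusted p = 0.207). Without hippocampus 145 d replicate 3 its adjusted p was 0.0402. For the change across birth it called 0 (0.0437% of all genes), with 0 at an unadjusted p under 0.05. IL1B was the lowest there, at an adjusted p of 0.776. A call in cortex and none in hippocampus is thus no shown difference between them.

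The regions differed in level. In the 6 pairs of regions, with the mean over the 6 ages, 22 of the 30 differences passed. They were 5 of 5 genes between cortex and brainstem (51.5% of all genes), 4 between cortex and hippocampus (50.8%), 5 between cortex and hypothalamus (47.6%), 2 between brainstem and hippocampus (47.4%), 2 between brainstem and hypothalamus (44.6%) and 4 between hippocampus and hypothalamus (46%). With the slide as a random block, 11 of the 30 passed. The regions of an age come from the same animals, which these fits do not take into account.

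Markers of other cells also differed between the regions. TTR, the transthyretin of choroid plexus, had group means of 16.04 to 17.85 in brainstem and of 9.74 to 11.97 in cortex. The difference of cortex from brainstem was -5.78 (adjusted p = 3.87e-12). It is not exact, since TTR had the same highest value, 18.46, in brainstem at 100 d, 145 d and in the newborn. On single hypothalamus arrays TTR ran from 7.19 to 17.28. GFAP was lower in cortex than in brainstem by -2.47 and than in hypothalamus by -0.59 (adjusted p = 2.18e-33 and 2.08e-06). CD14 was lower in cortex than in brainstem by -0.28 (adjusted p = 0.00339), and ITGAM lower in cortex than in hypothalamus by -0.20 (adjusted p = 0.000869). The mean of ITGAM was nearly the same in cortex and brainstem. That of CD14 differed less between cortex and hypothalamus than between cortex and brainstem. Their part in the levels of the cytokine genes was not tested.

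IL1B and IL10 had the same order. IL1B was highest in hypothalamus at 8.34, followed by brainstem at 8.11, hippocampus at 8.04 and cortex at 7.75, and brainstem against hippocampus did not pass (0.08, -0.05 to 0.21). IL10 was at 7.72, 7.43, 7.33 and 7.07 in this order, and brainstem and hippocampus again did not pass (0.10, -0.03 to 0.23). With the scanner's processed signal brainstem stood above hippocampus for both (adjusted p = 0.0166 for IL1B and 0.00181 for IL10), and brainstem against hypothalamus no longer passed (adjusted p = 0.334 and 0.313). The difference of cortex from hypothalamus was -0.58 for IL1B (adjusted p = 3.63e-12, with the block 2.61e-05) and -0.65 for IL10 (adjusted p = 1.08e-13, with the block 2.14e-06). With the block, cortex against hippocampus for IL10 (adjusted p = 0.0522) and brainstem against hypothalamus for IL1B (adjusted p = 0.152) no longer passed.

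IL6 was highest in cortex at 7.37, then 7.10 in hippocampus, 6.90 in hypothalamus and 6.87 in brainstem, and brainstem against hypothalamus did not pass (-0.03, -0.18 to 0.12). With the block, cortex remained above brainstem and hypothalamus (adjusted p = 0.00138 and 0.00392) and the other calls were lost. TNF was lowest in cortex at 6.86, followed by hypothalamus at 7.04, hippocampus at 7.10 and brainstem at 7.12 with no call among these 3, and 0 of its calls remained with the block. IL1A was at 6.89 in cortex, 6.84 in hippocampus, 6.67 in hypothalamus and 6.67 in brainstem. Cortex against hippocampus did not pass (0.04, -0.06 to 0.14), nor did brainstem against hypothalamus (95% interval -0.10 to 0.09), and cortex above brainstem was its only call with the block (adjusted p = 0.0397).

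A single newborn array in each of 3 regions stood out for several of these genes. IL1A, IL1B, TNF and IL10 were each highest on the newborn array numbered 2 in cortex, brainstem and hypothalamus, which is 12 of 12 cases, while IL6 was so in 0 of 3. In hippocampus it was the highest for 0 of the 5 genes. The labels do not say that arrays of the same number come from the same lamb. In each of these 3 regions number 2 was also the only newborn array on slide 2. Among the newborn arrays its lamb and its slide therefore cannot be told apart. On these arrays IL10 was at 7.93, 8.40 and 8.50, against highest values of 7.54, 7.66 and 8.03 on the other newborn arrays of these regions. With the 3 arrays left out, an alternative chosen after seeing the data, the newborn differences of IL10 from 80 d were 0.59, 0.62 and 0.53 and still passed (adjusted p = 7.36e-05, 9.69e-05 and 0.0182). Without them the newborn difference of TNF in cortex, at 0.29, and the rise of IL1B across birth in brainstem, at 0.31, no longer passed (adjusted p = 0.0636 and 0.0894).

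Of the T cell markers, CD3E and CD3D rose from 80 d to the newborn by 0.86 and 0.70 in cortex (adjusted p = 0.00621 and 0.00625) and by 0.80 and 0.67 in brainstem (adjusted p = 0.0466 and 0.0318). In hippocampus CD3E rose by 1.06 (adjusted p = 0.0398) and CD3D did not pass (0.78, adjusted p = 0.0732), and in hypothalamus neither passed (0.74 and 0.80, adjusted p = 0.164 and 0.0816). CD3D was highest of the newborn arrays on number 2 in cortex, brainstem and hypothalamus and on number 1 in hippocampus. CD3E was also highest of the newborn arrays on number 2 in cortex, brainstem and hypothalamus, at 8.73, 9.09 and 9.46, and on number 1 in hippocampus, at 9.12, where IL10 (8.18) and IL1B (8.58) were highest too, while TNF was highest on number 4 (7.49) and IL1A on number 3 (7.02). CD4 was well above background on 1 of the 95 arrays. CD14, a marker of microglia and macrophages that is also in the sensing list below, rose from 80 d to the newborn by 1.19 in cortex, 0.96 in brainstem and 0.55 in hypothalamus (adjusted p = 0.000251, 0.000112 and 0.0458), and it was highest on number 2 in hypothalamus and hippocampus and on number 4 in cortex and brainstem. ITGAM, the other tested gene of the microglia and macrophage list, rose by 0.55, 0.40 and 0.45 in the same regions (adjusted p = 0.000129, 0.00759 and 0.0187). It was highest on number 2 in cortex (7.37, others at most 7.27) and hypothalamus (7.43, others at most 7.14), and in brainstem it was at 7.43 there and at 7.48 on number 4. Across birth in brainstem, where IL1B was called, 2 of 2 tested genes of that list were called higher (4.99% of all genes called). Their median change was 0.56. Named probes were found for 2 of 11 genes of that list and 3 of 6 of the T cell list. Their part in the newborn levels was not tested.

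**Figure D5:**
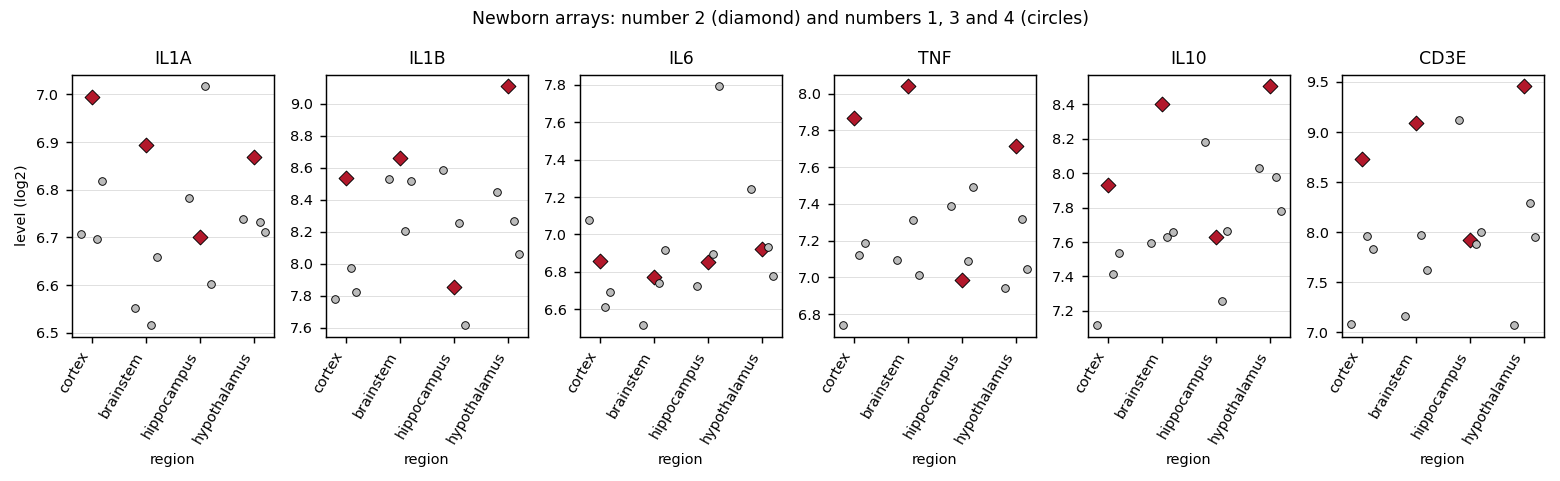
Level (log2) of the 5 genes and of the T cell marker CD3E on the newborn arrays of each region (horizontal axis), with the array numbered 2 as a diamond and numbers 1, 3 and 4 as circles. The diamond is the highest point for IL1A, IL1B, TNF, IL10 and CD3E in cortex, brainstem and hypothalamus and for none of them in hippocampus.

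The pathway around these cytokines was followed as 4 lists, of which 47 of 114 genes had a named probe. Of the receptors and antagonists, 5 of 16 had one and 4 were tested in each region, and from 80 d to the newborn 0 of 4 changed in any region. TNFRSF1A, the main TNF receptor, was called by the F test in brainstem, with 7.42 at 80 d, 6.87 at 145 d and 7.18 in the newborn (adjusted p = 0.00338). Of other cytokines and chemokines, from 80 d to the newborn 4 of 13 tested rose in cortex, 0 of 13 in hypothalamus, 3 of 15 in brainstem and 1 of 16 in hippocampus, and none fell. Over all genes the same comparison called 45.5% in cortex, 17.7% in hypothalamus, 43.6% in brainstem and 5.62% in hippocampus. The one in hippocampus was IL12A, a subunit of interleukin 12, at 7.12 and 8.49, a rise of 1.36 (adjusted p = 0.00115).

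Of the sensing, signaling and feedback genes tested, 9 of 10 rose in cortex (45.5% of all genes called), 8 of 11 in hypothalamus (17.7%), 3 of 11 in brainstem (43.6%) and 1 of 11 in hippocampus (5.62%). Whether the list differed between regions was not tested. Its median change was 0.48 in cortex, 0.51 in hypothalamus, 0.16 in brainstem and 0.07 in hippocampus, beside -0.03, -0.03, 0.03 and -0.02 over all genes in this order. NFKBIA, the inhibitor that NF-kappa B induces against itself, rose in brainstem from 9.68 to 11.70 (2.02, adjusted p = 1.34e-06) and in hypothalamus from 10.05 to 11.12 (1.07, adjusted p = 0.00928). FOS, an immediate early gene, rose by 2.31 in cortex and 1.19 in hypothalamus (adjusted p = 3.27e-08 and 0.00038). TLR7, a sensor of RNA, rose in hypothalamus by 0.49 (adjusted p = 0.00178).

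Of inflammatory target genes, 7 of 12 rose and 2 fell in cortex (45.5% of all genes called), while in brainstem 5 of 12 rose and 3 fell (43.6%). In hypothalamus 3 of 13 rose and 1 fell (17.7%), and in hippocampus 3 of 12 rose (5.62%). PTGS2, the inducible cyclooxygenase, went through means of 6.95, 7.13, 7.73, 8.38, 8.98 and 9.50 over the 6 ages in cortex (2.55 from 80 d to the newborn, adjusted p = 5.25e-10) and rose by 1.53 in hippocampus (adjusted p = 0.0268). CHI3L1, a glycoprotein of activated astrocytes and macrophages, rose by 2.37 in cortex and by 2.95 in brainstem (adjusted p = 8.59e-07 and 4.53e-08). PLAU, the urokinase, and SOD2, the mitochondrial superoxide dismutase, rose in cortex by 0.97 and 0.69 (adjusted p = 8.45e-08 and 6.58e-05). ICAM1 and SELP, adhesion molecules of endothelium, rose in hypothalamus by 0.57 and 0.48 (adjusted p = 0.00287 and 0.000291). SELP stood at 6.53 at 80 d, near the dimmest level marked well above background, so the size of its change is not exact. TIMP1, an inhibitor of metalloproteinases, fell by 1.07 in cortex and by 1.08 in brainstem, and MMP2, a metalloproteinase, fell by 0.79 in brainstem (adjusted p = 2.22e-05, 6.57e-05 and 2.15e-05). In hypothalamus MMP2 was called by the F test, with a newborn difference of -0.25 (adjusted p = 0.0538).

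The genes whose group means were most like each cytokine were ranked by Pearson's r over the 24 means of region and age, among 1000 other genes with a symbol. These means share slides and ages, and r is given as a description. For IL1B they were IL10 (0.901), the adenosine receptor gene ADORA3 (0.874) and PDXK (0.865), and for IL10 they were ADORA3 (0.923), IL1B (0.901) and the costimulatory molecule CD86 (0.891). TNF was most like the MHC class II gene OVAR-DQA1 (0.845), CD14 (0.838) and the complement receptor C5aR (0.827). IL1A was most like ACACA (0.846), NRG1 (0.817) and CSNK1E (0.801), and IL6, at lower values, like TGFB2 (0.717), KRT25 (0.709) and ITGA4 (0.709). Among the cytokines themselves IL1A had r of -0.76 with IL1B and -0.70 with IL10, and IL6 of -0.64 with IL1B and -0.51 with IL10. TNF had r of 0.70 with IL10, 0.64 with IL1B, -0.44 with IL1A and -0.41 with IL6, and IL1A of 0.54 with IL6.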

How the data were processed

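RNA of 95 brain samples was labeled with Cy3 and hybridized to 1-colour ovine arrays by the authors. Per the file headers the arrays were read with Feature Extraction 10.1.1.1, while the methods name another version of it. The deposited files give the mean intensity and the local background intensity of each spot. Here the background was removed with limma's normexp correction (offset 50), values were put on the log2 scale and quantile normalized over all arrays, with limma 3.58.1 under R 4.3.3. The authors also deposited a table of normalized log2 values with 11138 rows, of which each of the 95 columns correlated best with its own array (r 0.9992 to 0.9997). It was used as an alternative, and it holds 6 of the 7 probes.

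Spots with an outlier mark and control spots were left out. A probe entered the tests of a region if 4 or more arrays had it at or above 1.1 times what 95% of the 77 negative control spots stay under, which all 7 probes passed in every region. Spots of a probe and probes of a gene were averaged, and a gene counts as not well above background only where all its probes do, a probe being well above it where a share of 0.5 or more of its spots carry the scanner's mark. Where probes of a gene disagreed, both are given. Of the 15008 probes, 1656 could be given a symbol, by what the files say or by a RefSeq gene table (assembly ARS-UI_Ramb_v3.0), and they stand for 1025 genes. All printed sequences are those of the probes in the array files.

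Groups came from the sample labels. The ages of a region shared 1 limma fit (lmFit, eBayes), and regions were compared in 1 fit over all arrays. Benjamini-Hochberg adjustment ran over all genes tested, with 0.05 as the threshold. How precise a mean is depends on its 3 or 4 arrays. The 5 genes are named in every result. Of the lists, up to 6 genes per region with the smallest adjusted p of the age change are named, and for each cytokine the 3 genes most like it. CD3E, CD14, CD4, HBB, AHSP, ITGAM, GFAP, AQP4, GHRH, OXT, POMC and NEUROD1 are cell or tissue markers. The genes, lists and tests were chosen with earlier results of these data known. The tests were also tested on simulated data, in which fewer of the changes put in were found in hippocampus than in the other regions. Alternatives were an offset of 16, the scanner's processed signal with each array set to its 75th percentile, normalization within each region, no filter, the scanner's mark as filter, the brightest probe, single probes, kept outlier spots, uneven areas left out, eBayes with trend and robust settings, the replicate number or the slide as a block, the authors' table and each array left out in turn. Figures were drawn with matplotlib.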

Additional observations from a re-analysis of the deposited data

Results flagged for a closer look

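In 10 of the 115 sets of a gene and a group of 4 arrays, 1 array lay far from the other 3 by Dixon's test, where chance gives about 1 in 20 sets, or 5.75. IL6 was high on cortex 120 d replicate 3 (8.35, others 7.64 to 7.75), brainstem 80 d replicate 2 (6.91, others 6.81 to 6.83) and hippocampus newborn replicate 4 (7.79, others 6.72 to 6.89), and low on hypothalamus 130 d replicate 2 (6.73, others 7.01 to 7.05). IL10 was high on cortex 145 d replicate 3 (7.39), brainstem 145 d replicate 3 (7.86) and brainstem newborn replicate 2 (8.40), and low on hippocampus 120 d replicate 4 (6.97), where it was not well above background. TNF was high on cortex 120 d replicate 2 (7.36, others 6.71 to 6.73), an array on which HBB was at 15.09 and CD3E at 8.12. IL1A was high on cortex 120 d replicate 4 (7.02, others 6.71 to 6.76).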

How the results depend on the processing

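For the differences, slopes and F tests that passed for single genes, 635 values under the alternative settings still passed and 43 no longer passed. The differences and slopes among them all kept their direction, which an F test does not have. With single probes a call was kept only where every probe of the gene passed, by which 145 d against 80 d had 3 calls in place of 5, and IL1A in cortex and IL10 in hypothalamus lost all their calls within the region. The number of calls of the 5 genes over the 4 regions was 1 across birth and 0 with an offset of 16, with outlier-marked spots kept, with eBayes trend and robust settings, with the replicate block, with the slide as a block, in the authors' table and without the 3 newborn arrays numbered 2, which was chosen after seeing the data. The fetal slope was called 7 times, and 4 times with the processed signal. Between regions 22 calls became 11 with the slide as a block, under which the calls among all genes also fell, from 51.5 to 28.7% for cortex against brainstem and from 46 to 14.7% for hippocampus against hypothalamus. The cause was not tested.

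With single arrays left out the calls ranged from 6 to 8 for the change with age, 6 to 8 for the slope, 4 to 6 for 145 d against 80 d, 7 to 9 for the newborn against 80 d, 0 to 2 for the newborn against 145 d and 20 to 22 between regions. A change that differed between regions was called 0 to 1 times for 145 d against 80 d and 0 to 0 times across birth. IL1B in the fetal brainstem lost its slope without 80 d replicates 2 or 3 or 145 d replicate 3 (adjusted p of 0.0651, 0.0542 and 0.0533), TNF its difference between cortex and hypothalamus without 1 of 5 arrays, and IL6 that between hippocampus and hypothalamus without 1 of 4.

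The labels do not say whether a replicate number marks an animal. In cortex and brainstem the arrays numbered 1 were on slide 1 and those numbered 4 on slide 3 at every age. Correlations of deviations ran from -0.57 to 0.87 between same-numbered arrays of 1 region and from -0.34 to 0.54 between those of 1 age in different regions. Their mean was 0.18 in cortex (-0.06 between other numbers) and 0.12 among newborn arrays (-0.04). Since not every pair was above 0.1, the numbers were not taken as pairs. That rule cannot decide whether a number marks an animal, since single pairs vary widely. Arrays of different ages come from different animals in any case. With the replicate block TNF passed the F test in cortex (adjusted p = 0.0405), IL6 its difference at 145 d there (adjusted p = 0.0476), and IL1B in brainstem no longer passed across birth (adjusted p = 0.0529), while no other call of a single gene changed. Uneven areas were found on 28 arrays and covered 3 of the 1425 spots of these probes.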
